A study of Mus musculus with 4 samples.

Results

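The Myc family was examined here as chromatin: the accessible sites at Myc, Mycn and Mycl and along the distal stretch of chromosome 15 that holds the blood enhancers of Myc. ATAC-seq, which cuts and tags open chromatin with a transposase, was run on MPP3 cells, a myeloid-biased multipotent progenitor of mouse bone marrow. The libraries carry the genotype label WTiMOS_T2 (2 libraries) or WTiMOS_T1 (2 libraries), and all came from WT-iMOS mice 3 months of age. What T2 and T1 stand for is not given in the labels. Nothing in them says that the 2 libraries of a group came from different animals, so the spread between them may be technical. The study as a whole is about Bcl11a, a zinc-finger repressor, but no label states a change in Bcl11a in either group. Regions were taken in the gene body or 100 kb either side for Mycn and Mycl, and 2 Mb either side for Myc. Peaks that shared at least 1 bp across the 4 lists were joined into 1 region. This gave 93 regions out of 77914 over the genome: 67 around Myc, 7 around Mycn and 19 around Mycl. All 3 genes had regions.

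MYC, MYCN and MYCL are basic helix-loop-helix transcription factors that bind DNA as partners of MAX and drive genes of growth, ribosome production and division. In blood, MYC levels set the balance between stem cell maintenance and progenitor expansion, and MYCN can share that work in early cells, while MYCL is best known from dendritic cells. Myc expression in blood stem cells and progenitors depends on a cluster of enhancers far downstream of the gene, beyond the non-coding gene Pvt1.

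T2 replicates 1 and 2 had 66764 and 62704 peaks on the chromosomes used, against 58454 and 54045 in T1 replicates 1 and 2. Peak lists hold no read counts, so the depth behind them is unknown. Strength is given as the −log10 q of a peak over local background, as the authors deposited it, and as a percentile, the percent of the same list with a lower −log10 q. Neither is read as a change between lists. A weaker peak may come from fewer cells with the site open or from less opening per cell, and these cannot be told apart. Among MPP3 and progenitor markers matched in the promoter table, 10 of 10 had a region at the gene start in both T2 libraries and 9 of 10 in both T1 libraries. Of 3 erythroid markers, 0 had one in any library. Lck was the 1 T and NK marker of 5 with such a region, in all 4 libraries. Of 3 B cell markers, 2 had one in each T2 library and in T1 replicate 2, and 0 in T1 replicate 1. Mature neutrophil and macrophage markers had it for 0 of 2 in each T2 library and 1 of 2 in each T1 library. For stroma and endothelium, both matched markers (Cxcl12 and Kdr) had it in all 4 libraries. The part of such cells in the results below was not tested.

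The promoters of Mycn and Mycl lay wholly inside accessible regions as joined over the 4 libraries, though not inside the peaks of every library. In T2 replicate 2, peaks left part of the Mycn promoter uncovered, since 1 ended at chr12:12942006 and the next began at chr12:12942232. In T1 replicate 2 the peak at the Mycl promoter ended at chr4:122995910, short of its last bases. A start of Gm41331 also lay wholly inside a joined region, which ranked among the 5 strongest of the Myc window. Gm41331 is a long non-coding RNA gene at the far upstream end of that window. These promoters are shown because they are the open sequences of these loci that the RefSeq promoter table (GRCm38.p6, the assembly that mm10 names) holds. Each line gives the 250 bases before the start, 5′ to 3′ on the gene's strand, with capitals at the matches to the motifs searched. The Mycl start of that table lies inside the annotated gene (chr4:122995588-123002490), and so do its 250 bases. Mycl positions and distances run from that start.
Mycn, minus strand, chr12:12941837-12942086: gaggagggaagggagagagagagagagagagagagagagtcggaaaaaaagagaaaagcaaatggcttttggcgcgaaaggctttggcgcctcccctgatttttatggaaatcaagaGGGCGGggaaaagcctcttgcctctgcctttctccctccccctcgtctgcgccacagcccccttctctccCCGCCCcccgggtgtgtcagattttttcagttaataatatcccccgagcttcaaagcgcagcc
Mycl, plus strand, chr4:122995681-122995930: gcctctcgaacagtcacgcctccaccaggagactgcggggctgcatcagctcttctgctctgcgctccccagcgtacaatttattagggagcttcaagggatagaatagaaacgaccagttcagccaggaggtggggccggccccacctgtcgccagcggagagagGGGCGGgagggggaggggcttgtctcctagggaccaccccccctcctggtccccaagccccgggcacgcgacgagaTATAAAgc
Gm41331 (second of its 2 starts), plus strand, chr15:60141661-60141910: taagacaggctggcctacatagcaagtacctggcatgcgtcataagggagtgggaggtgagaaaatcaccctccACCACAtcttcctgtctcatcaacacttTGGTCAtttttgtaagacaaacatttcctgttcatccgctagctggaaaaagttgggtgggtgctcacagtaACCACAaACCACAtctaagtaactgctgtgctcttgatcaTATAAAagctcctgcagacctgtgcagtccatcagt

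The motifs were searched on both strands, and no match overlapped another. The SP/KLF motif GGGCGG occurred at positions -133 to -128 and, reversed, at -63 to -58 before the Mycn start, and at -84 to -79 before the Mycl start. It stood in 32.7% of all 32851 promoters of this length. The Mycl promoter also held the TATA box motif TATAAA at -8 to -3, which stood in 12.4% of promoters. Neither promoter held the E-box CACGTG, the site of MYC with MAX, found in 6.02% of promoters. Neither held the BCL11A motif TGACCA, found in 11.4% of promoters, or the ETS motif GGAAGT, found in 19.7%. The RUNX motif TGTGGT, found in 14.0%, and the GATA motif AGATAA, found in 9.99%, were also missing from both. The second Gm41331 start, the one shown, had the RUNX motif 3 times, the BCL11A motif 1 time and the TATA box motif 1 time. The first start, not shown, lies in the same region. It held matches to the RUNX, BCL11A and ETS motifs and none to the TATA box motif. The Mycn and Mycl promoters had a GC content of 54.8% and 63.6% with 11 and 14 CpG pairs, where the median promoter was 52.4% with 6. A match is a match of letters and no evidence of a bound factor.

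All 3 genes had an accessible region over the start with a peak in all 4 libraries, as did 58.4% of the 17493 protein-coding genes with a start to check. By −log10 q the order of the 3 starts was the same in every library, Myc first, then Mycn, then Mycl. By the deposited fold over local background, Myc was first in none. Its start stood at the 52.9 and 44.4 percentiles of fold in T2 and the 52.4 and 55.6 percentiles in T1. Myc, the family member with the widest use in dividing cells, had its start region at chr15:61984446-61985858, which takes in the first part of the gene. Its peak had −log10 q of 130 and 83.8 in T2 replicates 1 and 2 and 144 and 117 in T1 replicates 1 and 2. Within its own list it stood at the 92.9 and 87.8 percentiles in T2 and the 93.9 and 94.1 percentiles in T1. Both T1 libraries ranked it above both T2 libraries, by a small margin. With the lists shortened to the 54045 strongest peaks each, the percentiles were 91.3 and 85.9 in T2 and 93.4 and 94.1 in T1. The summits lay 26 and 155 bp upstream of the start in T2, and 33 and 75 bp upstream in T1. Peaks there were 1346 and 1387 bp wide in T2 and 1111 and 971 bp wide in T1, so the T2 peaks were the wider ones. A narrow second region at chr15:61983383-61983652, 1.82 kb upstream, was also present in all 4 libraries, with −log10 q of 26.8 and 17.6 in T2 and 13.8 and 15.8 in T1. Both T2 values were above both T1 values, although the percentiles in lists of equal length overlapped. A region inside the gene, 1.79 kb after the start, had a peak in T2 replicate 2 (8.53) and T1 replicate 1 (13.9) and in neither of the other two.

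Mycn, active mainly in embryonic and stem cells, had its start region at chr12:12941535-12942967, with −log10 q of 92.8 and 72.9 in T2 and 61.8 and 74.0 in T1. The percentiles were 86.9 and 85.0 in T2 and 78.5 and 86.1 in T1, so the groups overlapped. The strongest summit did not sit on the start. It lay 715 and 716 bp upstream in T2 and 721 and 715 bp upstream in T1, a spread of 6 bp over the 4 libraries, where regions of all 4 libraries had a median spread of 63 bp. T2 replicate 2 had a weak separate peak over the start itself (−log10 q 9.06, summit 99 bp inside the gene).

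The Mycl start region held a single broad peak in each T2 library and more than 1 narrower peak in each T1 library. The region spans chr4:122995416-122997497. The T2 peaks were 1925 and 1946 bp wide. T1 replicate 1 had 3 peaks of 595, 300 and 666 bp, and T1 replicate 2 had 2 peaks of 484 and 584 bp. Neither T1 replicate 2 peak covered the start used here, as the first ended at chr4:122995910 and the second began at chr4:122996774. The last T1 peaks had their summits 1303 and 1313 bp after the start used here, with −log10 q of 24.7 and 18.2. A region with 1 peak in each T2 list and more than 1 in each T1 list was seen 66 times among 44274 regions of all 4 libraries, 0.149% of them. The opposite was seen for 0.248%. Mycl was picked out on this measure after its values were seen. The strongest peak had −log10 q of 42.7 and 36.9 in T2 and 46.0 and 34.1 in T1. Its percentiles were 68.5 and 67.3 in T2 and 71.1 and 67.0 in T1, which overlap. In lists of equal length they were 61.1 and 62.1 in T2 and 68.8 and 67.0 in T1, with both T1 values higher, so this order depends on the length of the lists.

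**Figure D1:**
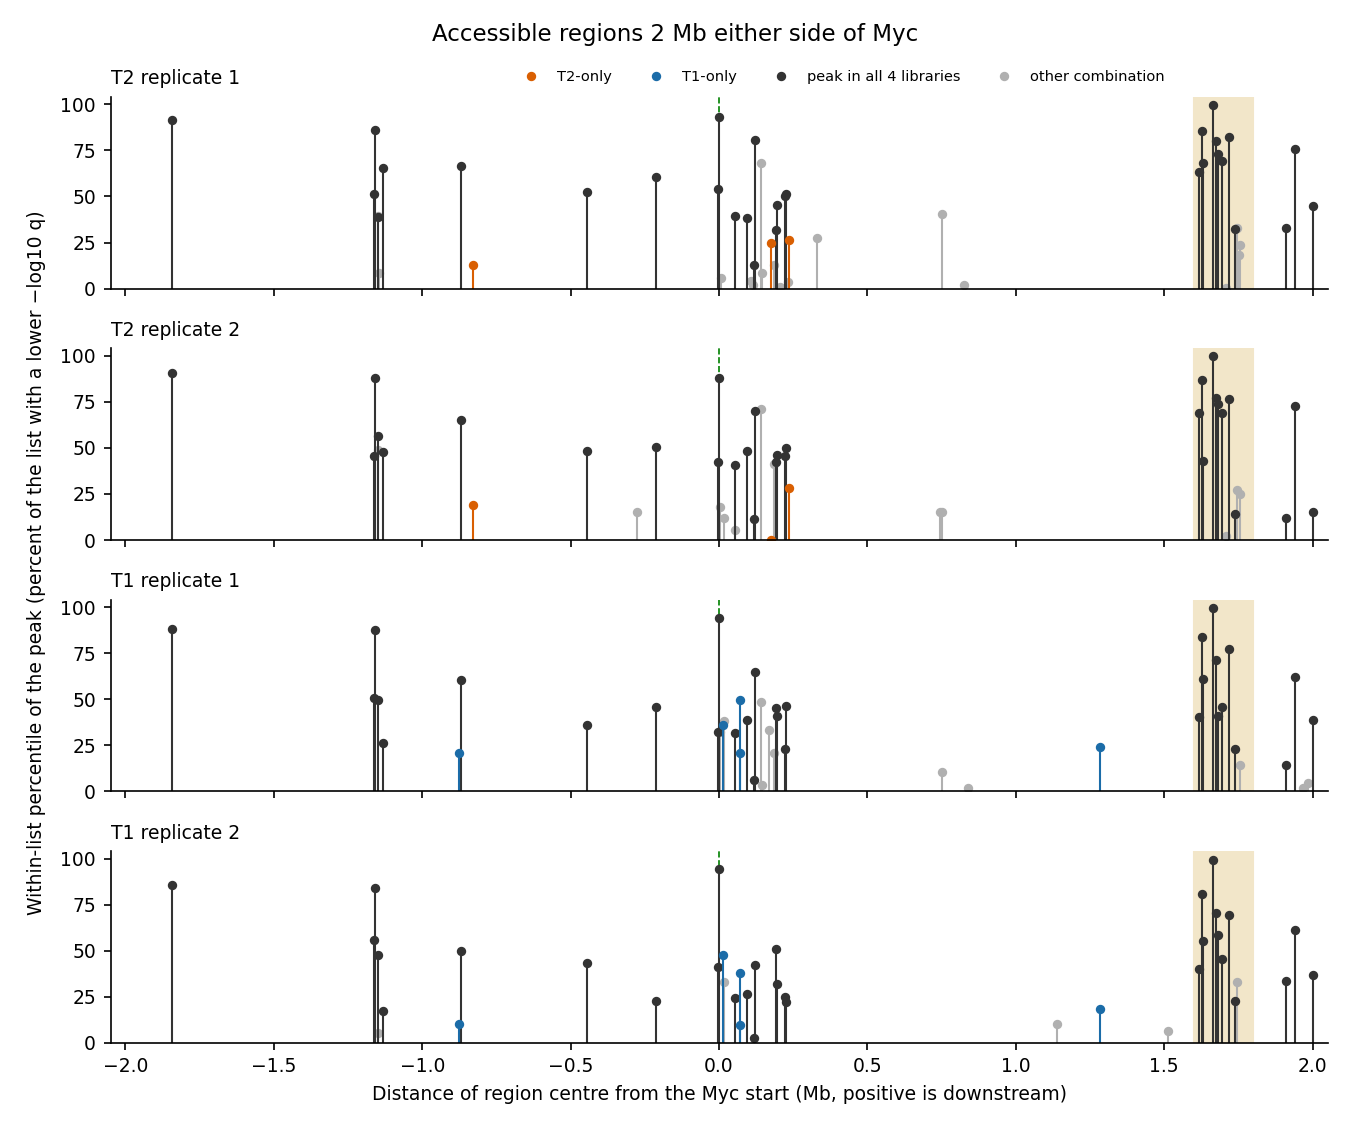
Each panel is a library, and each stem is a region, placed by its distance in Mb from the Myc start (dashed line) and as high as the within-list percentile of its peak. The shaded band is 1.6 to 1.8 Mb downstream, where the 99.4, 99.7, 99.4 and 99.2 percentile peaks of the 4 libraries stand, and colours give the class of the region.

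Within 2 Mb of Myc, the number of open regions varied widely from place to place. Of 20 windows of 200 kb, the one from the Myc start into Pvt1 held 20 regions and the one from 1.6 to 1.8 Mb downstream held 14, while 5 held 0. Over a fixed grid of the genome the median 200 kb window held 2 regions, 16.3% of 13617 windows held at least 14, and 36.4% held 0, a larger share than around Myc. The 1330 kb between the end of Pvt1 and the distal cluster had 8 regions, none of them in all 4 libraries, and 6 of them had a peak in 1 library each. In the plot of regions around Myc this stretch is nearly empty in every library.

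The distal cluster 1.6 to 1.8 Mb downstream of Myc, where the known blood enhancers lie, was open in both groups, and none of its regions was particular to a group. It lies between Pvt1 and the Gsdmc genes, and its 9 regions of all 4 libraries spanned 121 kb. Peaks were present at 13 and 12 of its 14 regions in T2 and at 10 and 10 in T1. All 4 libraries shared 9 of the 14 (64.3%, 95% Wilson interval 38.8 to 83.7), and over the genome they shared 56.8%. T2-only regions, with a peak in both T2 libraries and neither T1 library, numbered 0, and T1-only regions, the opposite class, numbered 0. A count of 0 in 14 allows up to 21.5% by the Wilson interval, so the 6.88% T2-only and 2.33% T1-only of all regions lie inside it. Leaving out T1 replicate 1, T1 replicate 2 or T2 replicate 1 gave 1 T2-only region, and leaving out T2 replicate 2 gave 2. With 1 library in a group either class is easier to meet, so such counts can only stay or rise by construction.

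The strongest site of the cluster was at chr15:63647843-63648797, 1.663 Mb downstream, in no annotated gene. Its −log10 q was 259 and 244 in T2 and 264 and 209 in T1. It was peak 385 of 66764 and 196 of 62704 in the T2 lists, and 369 of 58454 and 414 of 54045 in the T1 lists. In all 4 libraries it stood above the Myc start itself, and the groups overlapped in −log10 q. The deposited fold over background was 15.8 and 16.7 in T2 and 17.1 and 17.1 in T1.

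The regions next to it were weaker and less even. At 1.626 Mb (chr15:63611038-63611658) the percentiles were 85.6 and 86.9 in T2 and 83.6 and 80.9 in T1. At 1.719 Mb (chr15:63704367-63705286) they were 82.3 and 76.5 in T2 and 77.4 and 69.2 in T1. At 1.632 Mb (chr15:63616640-63617688) they were 68.2 and 42.9 in T2 and 60.9 and 55.3 in T1. The T2 pair at that last site lay on either side of the T1 pair. The weakest site of all 4 libraries, at 1.737 Mb (chr15:63721515-63722213) inside the non-coding gene 4930449C09Rik, had 32.5 and 13.9 in T2 and 22.8 and 22.5 in T1.

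At 4 of the 9 sites both T2 percentiles lay above both T1 percentiles in lists of equal length, and at 0 the reverse held. Over the genome 25.8% of 40810 regions had the first order and 26.8% the second. The 4 sites were those at 1.617, 1.673, 1.680 and 1.694 Mb. At 1.617 Mb (chr15:63601636-63602181) the equal-length percentiles were 54.6 and 64.2 in T2 and 35.4 and 39.9 in T1. At 1.680 Mb (chr15:63665229-63665991) they were 66.4 and 69.5 in T2 and 36.2 and 58.4 in T1. At 1.694 Mb (chr15:63678636-63679472) they were 62.2 and 64.0 in T2 and 41.2 and 45.4 in T1. These 3 sites had the widest gaps, with the T2 mean 21.8, 20.7 and 19.8 percentile points above the T1 mean. At 1.673 Mb (chr15:63657743-63658946) the gap was 4.64 points. With T1 replicate 1 left out, the first order held at 7 of the 9 sites and the second at 1. The region at 1.744 Mb, not one of the 9, was ranked in that setting because it lacks T1 replicate 1, and it had the second order too. With T2 replicate 1 left out, the first order held at 6 of the 9 sites and the second at 2. With 1 library in a group 37.0% to 38.1% of all regions have the first order, so more sites meet it by construction. In the lists as deposited, with all 4 libraries, the first order held at 6 of the 9 sites and the second at 0. Over the genome those lists gave 40.7% and 14.2%. The 6 sites include 1.663 Mb, where T2 replicate 1 and T1 replicate 1 both round to the 99.4 percentile. No test was made, since 2 libraries against 2 allow no exact two-sided p below 0.333.

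**Figure D2:**
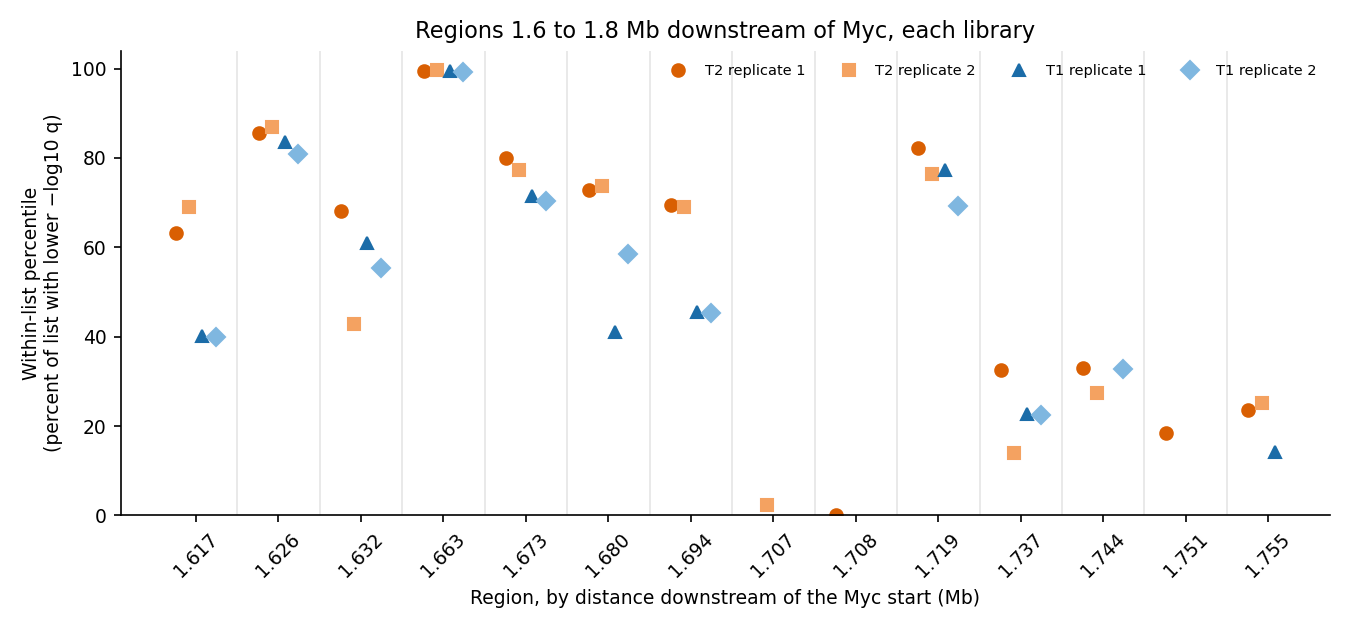
The 14 regions 1.6 to 1.8 Mb downstream of Myc are set out by distance from the Myc start in Mb, with a point for each library that has a peak, at its within-list percentile. The site at 1.663 Mb is above 99 in all 4 libraries. In the lists as deposited, drawn here, both T2 points lie above both T1 points at 6 of the 9 shared sites. The 6 include 1.663 Mb, where T2 replicate 1 and T1 replicate 1 both round to 99.4. The gaps are widest at 1.617, 1.680 and 1.694 Mb.

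The other 5 regions of the cluster were weak. Those at 1.744 and 1.755 Mb had peaks in 3 libraries, with −log10 q from 7.71 to 14.7, and lacked T1 replicate 1 and T1 replicate 2 in that order. The 3 at 1.707, 1.708 and 1.751 Mb had a peak in 1 T2 library each, with −log10 q of 3.91, 2.46 and 9.30. Summits of the 9 shared sites differed between libraries by 36 to 275 bp with a median of 64 bp, and the same median over the genome was 63 bp.

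Group-only regions of the Myc window lay elsewhere, mostly near Myc and inside Pvt1, a long non-coding RNA gene whose promoter is known from human cells to compete with that of MYC. There were 3 T2-only regions (4.48%, Wilson interval 1.53 to 12.4) and 5 T1-only regions (7.46%, 3.23 to 16.3) among 67, beside 6.88% and 2.33% of all regions. The T1-only share was above that background, and with 5 regions in 2 libraries this is a description only. Leaving out T1 replicate 1 or T2 replicate 1 gave 7 T2-only regions, leaving out T1 replicate 2 gave 5, and leaving out T2 replicate 2 gave 13. Leaving out a library makes either class easier to meet, so these counts can only stay or rise. Their share over all regions in these settings was not worked out. T1-only regions numbered 9 when T1 replicate 2 was left out and 3 when peaks under a −log10 q of 10 were dropped.

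Of the 5 T1-only regions, 3 lay within 75 kb downstream of the Myc start. The region at chr15:61999655-61999980, 14.5 kb downstream, had −log10 q of 15.4 and 19.3 in T1. The region at chr15:62056471-62056757, 71.3 kb downstream and inside Pvt1, had 22.7 and 14.7. A weaker one at chr15:62057553-62057808, 72.3 kb downstream, had 9.66 and 5.90. The last pair lies close together and may not be separate sites. The nearest peak of a T2 library was 2801 bp from the first and 17457 bp from the second. The next region beyond the first, at chr15:62002686-62003189, had 16.5 and 12.9 in T1, 6.95 in T2 replicate 2 and no peak in T2 replicate 1. The remaining T1-only regions overlapped no annotated gene. One at chr15:61108784-61109135, 876 kb upstream, had 9.80 and 6.22. The other, at chr15:63270361-63270689, 1.285 Mb downstream, had 10.9 and 8.42. A Notch-responsive enhancer of Myc is known from this gene-poor stretch in mouse T cell progenitors, but its position was not used here and no match is made.

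No T2-only region of the Myc window had a −log10 q above 12. The first, at chr15:61157476-61157821, 828 kb upstream within the non-coding gene Gm38563, had −log10 q of 7.58 and 9.03 in T2. The second, at chr15:62158892-62159205, 174 kb downstream in Pvt1, had 11.6 and 2.42. The third, at chr15:62221006-62221572, 236 kb downstream in Pvt1, had 12 and 11.7. When lists were shortened to equal length 1 T2-only region was left in the window. A stronger region in Pvt1, at chr15:62127748-62128246, 143 kb downstream, had 42 and 41.8 in T2 and 22.0 in T1 replicate 1, with no peak in T1 replicate 2, and so fell in neither class.

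Pvt1 with 1 kb before its start held 21 regions, 8 of them in all 4 libraries. Peaks stood at 17 and 13 of these in T2 and 14 and 10 in T1. The Pvt1 start region (chr15:62037573-62038446) was modest, with −log10 q of 17.5 and 16.8 in T2 and 13.3 and 9.77 in T1. The strongest Pvt1 region of all 4 libraries lay 121 kb downstream of the Myc start, at chr15:62106477-62106988, with 68.2 and 40.6 in T2 and 36.5 and 16.7 in T1. Both T2 values were the higher ones at both sites, but at the Pvt1 start the percentiles in lists of equal length overlapped. At chr15:62177698-62178123, 193 kb downstream, the order was the reverse, with 14.1 and 17.4 in T2 and 20.3 and 21.0 in T1.

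Over the whole Myc window, 28 regions were ranked in all 4 equal-length lists. Both T2 percentiles were above both T1 percentiles at 11 of them and below at 4, with overlap at 13. Over the genome 25.8% of such regions had the first order and 26.8% the second. The lists as deposited gave 19 and 2 of 30 regions, with 40.7% and 14.2% over the genome, so these counts move with the length of the lists. Leaving out T1 replicate 1 or T2 replicate 1 raised the first count to 18, and leaving out T1 replicate 1 or T2 replicate 2 raised the second to 7. A region then needs a rank in the remaining 3 lists, so 28 to 30 regions were ranked in these settings. Over the genome 37.0% to 37.5% of regions then have the first order and 38.2% to 40.2% the second. Both counts thus rise by construction. Upstream, the strongest region was the Gm41331 start shown above, 1.844 Mb from Myc, with −log10 q of 121 and 96.7 in T2 and 101 and 72.4 in T1.

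The Myc window also held many weak regions that did not recur. Of its 67 regions, 20 (29.9%) had a peak in 1 library, beside 18.2% of all regions, with −log10 q between 2.46 and 14.3 and a median of 4.92. T2 replicates 1 and 2 had 10 and 4 of these, and T1 replicates 1 and 2 had 4 and 2. As a share of each list, the window took 7.49 and 7.34 of every 10000 peaks in T2 and 8.04 and 7.59 in T1. The means were 7.41 ± 0.108 in T2 and 7.81 ± 0.321 in T1 (SD, n = 2 each, exact permutation p of 0.333). For the distal cluster alone the shares were 1.95 and 1.91 in T2 and 1.71 and 1.85 in T1. Both T2 shares of the cluster were the higher ones, with means of 1.93 ± 0.0236 in T2 and 1.78 ± 0.0987 in T1 (SD, n = 2 each, exact permutation p of 0.333).

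**Figure D3:**
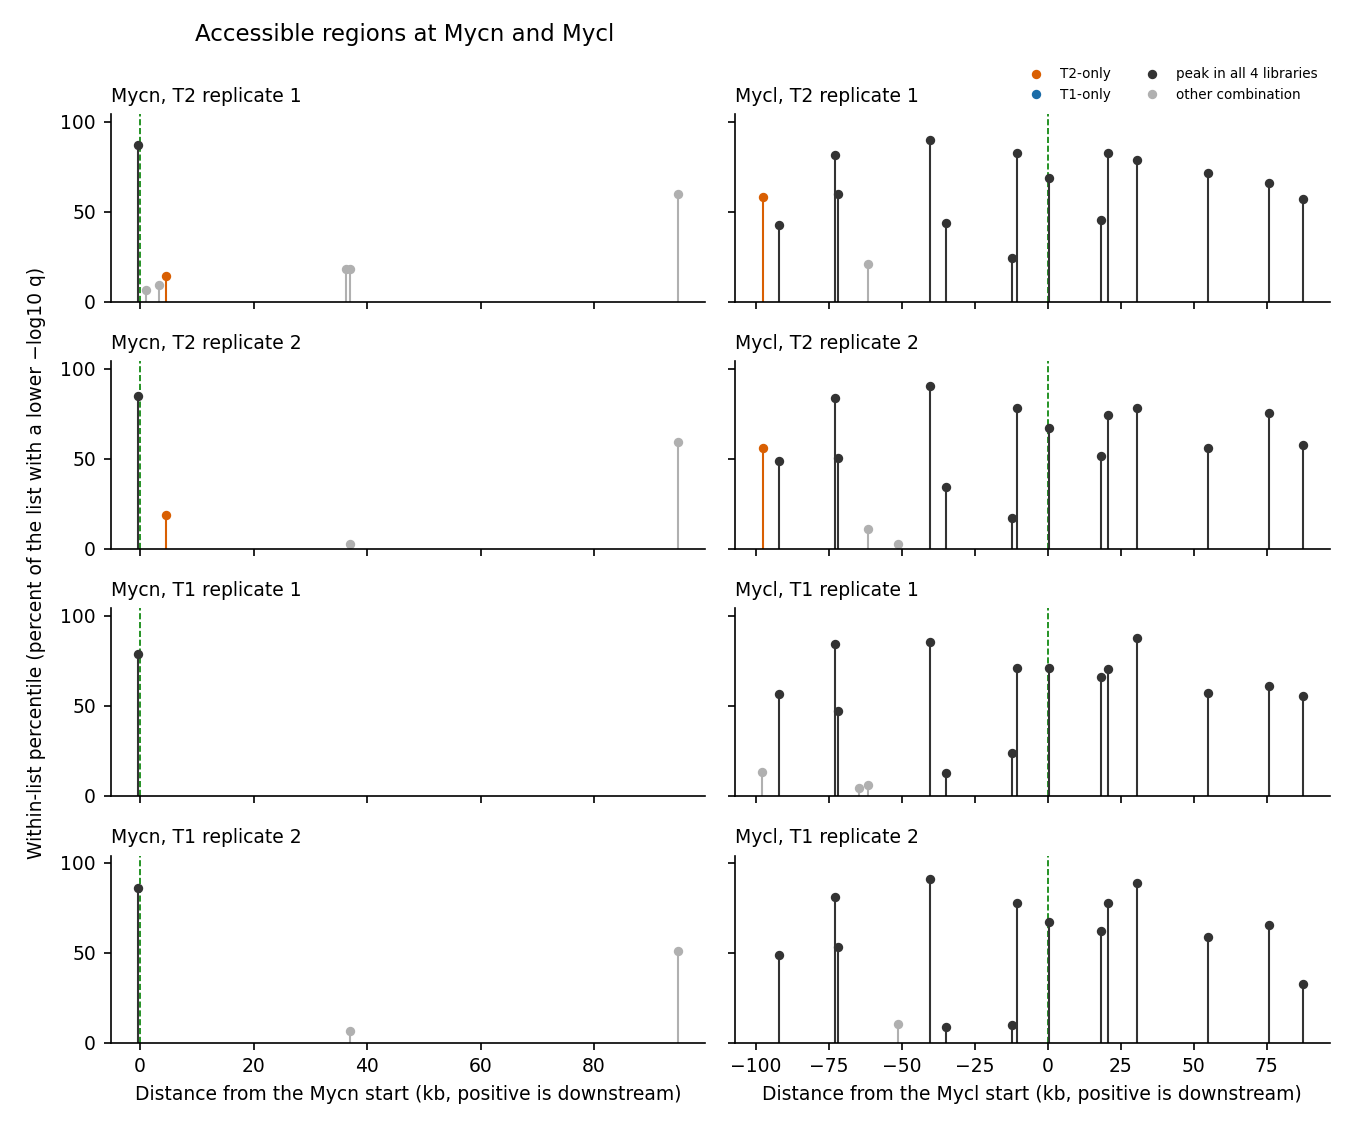
Regions within 100 kb of Mycn (left) and Mycl (right) are drawn as stems by distance from the gene start in kb, as high as the within-list percentile, with a row for each library. Mycn has 1 stem in T1 replicate 1 and 7 in T2 replicate 1, while Mycl has 14 regions shared by all libraries on both sides of the gene.

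The Mycn locus was sparse and held more peaks in T2 than in T1, most of the added ones weak. At a −log10 q of at least 10, only the start and the region 94.9 kb downstream had peaks. T1 replicate 2 had both. Of its 7 regions, 7 and 4 had a peak in T2 replicates 1 and 2, and 1 and 3 in T1 replicates 1 and 2. Only the start region was in all 4 libraries. As a share of each list, the window took 1.05 and 0.797 of every 10000 peaks in T2 and 0.171 and 0.555 in T1. The start region adds to the T2 replicate 2 share, since that library had 5 peaks in 4 regions. The means were 0.923 ± 0.178 in T2 and 0.363 ± 0.272 in T1 (SD, n = 2 each). The difference of 0.560 had an exact permutation p of 0.333 (two-sided), the smallest that 2 against 2 libraries allow, and 0.333 after adjustment over the 4 windows.

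A single T2-only region lay at Mycn, inside the gene at chr12:12937104-12937495, 4.54 kb after the start, with −log10 q of 7.86 and 8.96 in T2. T1-only regions numbered 0. Leaving out T1 replicate 2 gave 3 T2-only regions and leaving out T2 replicate 2 gave 4, counts that can only stay or rise by construction. Dropping peaks under a −log10 q of 10 gave 0. The strongest region apart from the start, at chr12:12846774-12847152, 94.9 kb downstream, had 32.2 and 28.9 in T2, 21.1 in T1 replicate 2 and no peak in T1 replicate 1. A weaker region 37.0 kb downstream had 9.09 and 4.11 in T2 and 5.18 in T1 replicate 2. T1 replicate 1 thus had a peak at the start alone, although its list was longer than that of T1 replicate 2.

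Mycl sat in a stretch of shared open chromatin. All 4 libraries shared 14 of its 19 regions (73.7%, Wilson interval 51.2 to 88.2), beside 56.8% over the genome. The window took 2.40 and 2.71 of every 10000 peaks in T2 and 3.25 and 2.96 in T1 (mean 2.55 ± 0.222 in T2 and 3.11 ± 0.205 in T1, SD, n = 2 each, exact permutation p of 0.333). Both T1 shares were the higher ones. The split of the Mycl start peak adds to them, since T1 replicate 1 had 19 peaks in 17 regions.

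The strongest regions flanked the gene on both sides and outranked its start. The first was at chr4:122955207-122955956, 40.4 kb upstream inside Mfsd2a, a lipid transporter gene, with −log10 q of 107 and 94.9 in T2 and 86.5 and 95.9 in T1. The second was at chr4:123025822-123026856, 30.4 kb downstream inside Trit1, a tRNA-modifying enzyme gene, with 62.6 and 54.7 in T2 and 96.2 and 83.6 in T1. Both T1 values were above both T2 values there. Regions at 73.0 kb and 10.6 kb upstream had 71.4 and 68.9, and 75.0 and 54.4, in T2, against 80.9 and 58.0, and 46.1 and 50.2, in T1. The Trit1 start, 20.7 kb downstream, had 75.0 and 47.1 in T2 and 44.7 and 50.3 in T1, which overlap.

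In lists of equal length, both T1 percentiles were above both T2 percentiles at 5 of 14 Mycl regions, beside 26.8% of all regions. The reverse held at 1, beside 25.8%. The widest gap was at chr4:123013968-123014420, 18.3 kb downstream, with percentiles of 32.8 and 43.7 in T2 and 62.9 and 62.1 in T1. Next came a region 92.1 kb upstream, with 29.2 and 40.8 in T2 and 52.9 and 48.9 in T1. The Trit1 region at 30.4 kb followed, with 73.3 and 74.9 in T2 and 86.4 and 88.5 in T1. The region with the other order, at chr4:122960378-122961448 over the Mfsd2a start, had 30.5 and 23.5 in T2 and 5.30 and 8.83 in T1. In the lists as deposited the T1-above count was 2 and the T2-above count was 4, beside 14.2% and 40.7% of all regions. Leaving out replicate 1 of either group gave a T2-above count of 2, and leaving out replicate 2 of either gave 4. In those settings 37.0% to 38.1% of all regions have that order.

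A single T2-only region was found at Mycl, at chr4:122898275-122898610, 97.5 kb upstream, with −log10 q of 30.5 and 25.8 in T2. It was stronger than any other group-only region of the 3 loci. A T1 replicate 1 peak of 7.18 ended 105 bp from it, and with peaks up to 500 bp apart joined, a setting chosen after the data were seen, T2-only regions numbered 0. They numbered 2 without T1 replicate 1. T1-only regions numbered 0, and 2 without T1 replicate 2. Counts without a library can only stay or rise by construction.

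**Figure D4:**
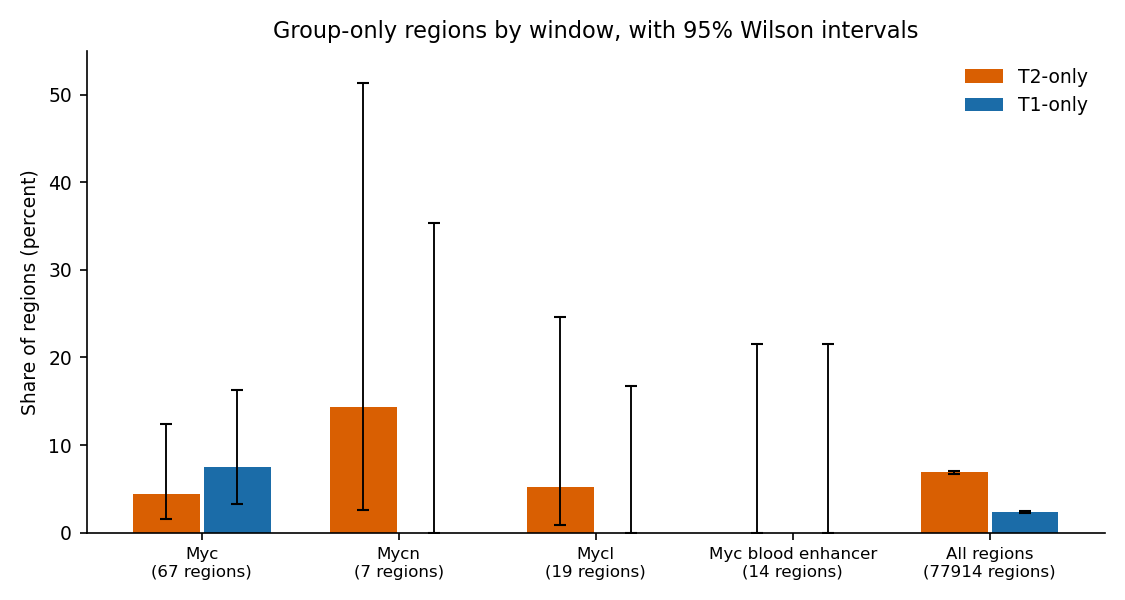
Bars give the percent of regions that were T2-only or T1-only in each window and over all 77914 regions, with 95% Wilson intervals that cover counting error only. The intervals of the 7 Mycn and 14 distal regions are wide, and for Myc the T1-only bar stands at 7.46 beside 2.33 over all regions.

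The genes that work with the family were nearly all open at their starts. From a list of 46 genes of the MYC network and of MYC targets, 38 matched the promoter table. Of these, 37 (97.4%) had a region of all 4 libraries at the start, beside 58.4% of protein-coding genes. The genes compared were not matched for expression, and whether the difference is particular to MYC was not tested. Fbxw7, the ubiquitin ligase subunit that marks MYC for destruction, was the exception, with a start region in both T2 libraries and T1 replicate 1 and none in T1 replicate 2. A T2-only or T1-only region at the start was found for 0 of the 38, beside 0.898% and 0.0972% of all genes. In the body or 50 kb either side, 17 (44.7%) had a T2-only region and 7 (18.4%) had a T1-only region, beside 34.6% and 13.5%. Added up over these genes there were 375 regions, of which 22 were T2-only and 8 were T1-only. Counted by region, neither class was above its share of all regions, 6.88% and 2.33%.

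Max, the shared partner of the family, had a start region at the 99.3 and 99.2 percentiles in T2 and the 98.6 and 99.2 percentiles in T1. The MAX partners that oppose MYC spanned a wide range of ranks. The start of Mxd4 had −log10 q of 414 and 338 in T2 and 383 and 306 in T1. That of Mxd1 had 320 and 314 in T2 and 283 and 281 in T1. Both starts were near the top of every list. In percentiles, Mnt was at 95.9 and 93.4 in T2 and 94.5 and 95.4 in T1, and Mga at 96.4 and 92.4 in T2 and 96.0 and 92.0 in T1. Mxd3 was at 88.5 and 83.1 in T2 and 89.3 and 90.8 in T1. The T1 values were the higher ones at Mxd3, and at Mxi1, which had 84.4 and 68.1 in T2 and 89.2 and 85.2 in T1. Mxi1 had 2 start regions of all 4 libraries, and these values are of the higher-ranked one alone. Mlx, the partner of the glucose sensors MLXIP and MLXIPL, had the other order, with 77.7 and 80.3 in T2 and 72.7 and 59.4 in T1. All 8 of these genes were open at the start in all 4 libraries.

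Group-only regions near these genes lay away from the starts. Max had a T2-only region at chr12:76909243-76909526 with −log10 q of 15.7 and 13.5 in T2, and Mxd1 had one at chr6:86694567-86694895 with 25.7 and 13.5. Mxi1 had a T1-only region at chr19:53273253-53274106 with 17.9 and 13.2 in T1 and a T2-only one at chr19:53405869-53406264 with 9.45 and 5.97 in T2. Mxd3 had a T1-only region at chr13:55318497-55318849 with 13.4 and 5.47. The others (Mxd4, Mnt, Mga and Mlx) had 0 of either class.

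**Figure D5:**
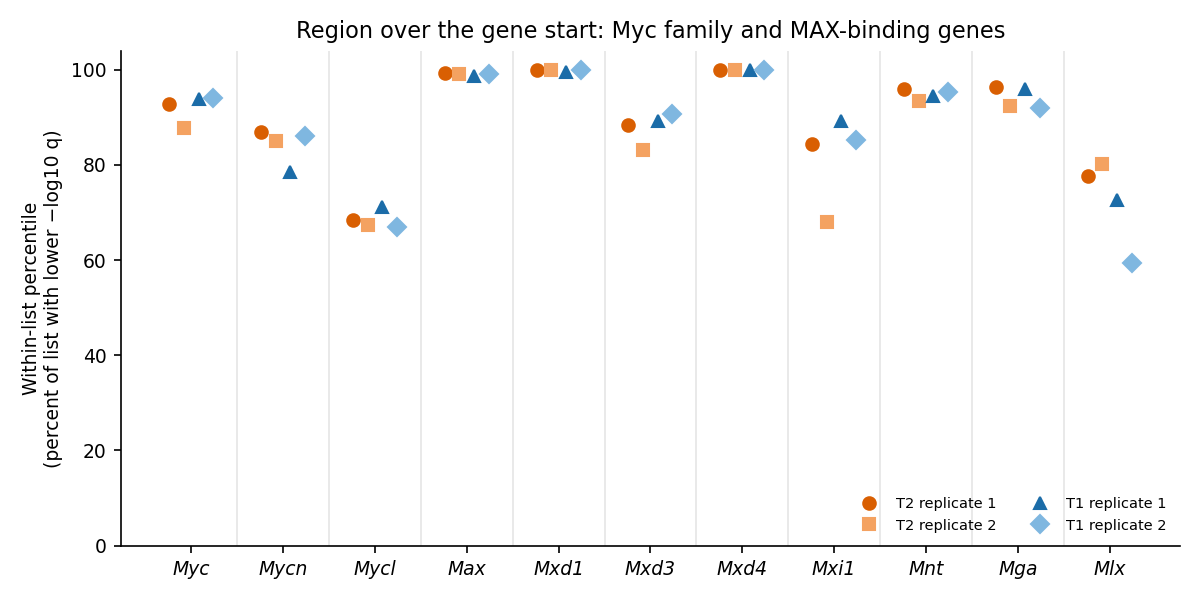
Each point is a library's within-list percentile for the region over the start of a Myc family gene, Max, a MAX partner or Mlx. For Mxi1 it is the higher-ranked of 2 start regions. The starts of Max, Mxd1 and Mxd4 lie above 98 in every library, Mycl lies between 67.0 and 71.1, and both Mlx points of T2 lie above both of T1.

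The genes whose start regions ranked most like those of the family were found by the greatest difference in equal-length percentile over the 4 libraries, among 10005 genes. For Myc they were Dyrk1a, Dusp7 and Tmem250-ps, within 0.781, 0.922 and 0.973 percentile points. For Mycn they were Inf2, Exoc6b and Ap1g2, within 1.43, 2.01 and 2.26 points. For Mycl they were Nod2, within 2.10 points, and Dnase1l1 and Taz, both within 2.39 points. Dnase1l1 and Taz had the same percentiles, 58.7 and 63.1 in T2 and 70.7 and 68.6 in T1, and so may be 1 region. With 4 libraries and many genes such matches are a description of rank alone.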

How the data were processed

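ATAC-seq libraries of T2 (2) and T1 (2) were grouped by their titles. Per the submitters' processing notes, Bowtie2, SAMtools, MACS2 and build mm10 were used. Their versions and settings, and any read filter or insertion shift, were not given in the sources used here. Within each list all peak names begin alike, which fits calling per library. Per the column order of MACS2, the authors deposited for each peak a fold (ratio of the summit over local background), a −log10 p and −log10 q, a score (a whole number that follows −log10 q) and a summit offset. These are not read counts, so no count model was fitted. The deposited threshold was a −log10 q of at least 2.

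Peaks on the 21 chromosomes 1 to 19, X and Y were kept. Lists were joined at 1 bp, and the strongest peak stood for a library's value in a region. Gene positions came from a RefSeq table on GRCm38.p6, and starts from its promoter table (250 bp before to 50 bp after). Myc is not in that table, so its lower gene end was used as its start, on the plus strand. The Mycl start of the table lies inside the annotated gene, so Mycl distances do not run from the gene end. Distances run from the start to the region's centre. The distal window (1.6 to 1.8 Mb) was set by distance from Myc, not from published coordinates. Named regions were the start regions, the group-only regions, the 5 highest-ranked shared regions per window and every shared region of the distal window. Other regions were named with their values in view. The members and gene lists were chosen with earlier results of these data known. Shares carry 95% Wilson intervals for counting error only. The joining and classing were tested on simulated lists with planted regions. Alternatives were stricter peaks, equal list lengths, covering at least 0.5 of a region, 250 bp around summits, other windows, ranking by fold, pairing by replicate number and leaving out each library. Python 3.11.15, pandas 2.3.3, NumPy 2.4.6 and SciPy 1.17.1 were used.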

Additional observations from a re-analysis of the deposited data

How the results depend on the processing

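Most counts here are small, so a single region can move them. After dropping peaks under a −log10 q of 10, T1-only regions numbered 3 for Myc, and T2-only regions numbered 0 for Mycn, 2 for Mycl and 1 in the distal window. Equal list length left 1 T2-only region for Myc and 0 for Mycn. Windows of 250 bp around summits gave 1 T1-only region for Mycl. Joining peaks up to 500 bp apart gave 0 T2-only regions for Mycl, as did a window of 50 kb, and a window of 200 kb gave 4 for Mycl and 2 for Mycn. A −log10 q minimum of 5, covering at least 0.5 of a region, a Myc window of 1 Mb and a distal window of 1.5 to 1.9 Mb kept every count of group-only regions they apply to within 1.5 times. In the lists as deposited, both T2 ranks were above both T1 ranks at 19 Myc and 4 Mycl regions and below at 2 Myc and 2 Mycl regions. Ranking by fold in the lists as deposited, which changes both the value and the list length, gave 2 Mycl regions above, and 2 Myc, 3 Mycl and 1 distal region below. Ranking by fold at equal list length, added after the data were seen, gave 1 distal region below and kept the other counts within 1.5 times. Over the genome, fold ranks gave 31.9% above and 16.8% below in the lists as deposited, and 19.3% and 29.4% at equal length. The −log10 q ranks at equal length gave 25.8% and 26.8%, so the background moved as well. Longer lists raise percentiles by construction. What moved the counts in these settings was not tested. Leaving out each library gave 5 to 13 T2-only and 5 to 9 T1-only regions for Myc, 1 to 4 and 0 to 0 for Mycn, 1 to 2 and 0 to 2 for Mycl, and 1 to 2 and 0 to 0 in the distal window. These counts can only stay or rise by construction, and their share over all regions was not worked out. With each library left out, T2 ranks were above at 14 to 18 Myc, 2 to 4 Mycl and 4 to 7 distal regions, and below at 5 to 7, 7 to 7 and 0 to 2. Over the genome these settings gave 37.0% to 38.1% above and 37.4% to 40.2% below. For the share of peaks per window, added as an alternative after the data were seen, the replicate block left the T2 minus T1 differences at -0.401 for Myc, 0.56 for Mycn, -0.552 for Mycl and 0.15 for the distal window, each with an exact paired permutation p of 0.5, the smallest that 2 pairs allow. No label ties the replicate numbers to a shared animal, batch or day. Leaving out each library kept the sign of all 4 differences, with -0.628 to -0.174 for Myc, 0.368 to 0.752 for Mycn, -0.709 to -0.394 for Mycl and 0.0801 to 0.22 for the distal window.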

Other observations

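Other genes inside the Myc window had open regions of their own. Lratd2, a protein-coding gene upstream of Myc, held the region at chr15:60824562-60825438, 1.160 Mb from the Myc start, with −log10 q of 88.9 and 84.6 in T2 and 96.3 and 67.1 in T1. A broad region further on, at chr15:60853234-60855006, had 38.4 and 20.8 in T2 and 11.6 and 7.94 in T1, with equal-length percentiles of 57.2 and 39.7 in T2 and 20.5 and 17.3 in T1. This was the widest gap with T2 above T1 in the window, 29.6 points between the means. T2 replicate 1 had 1 peak there 1699 bp wide, and the other libraries had 2 peaks each.

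Downstream of the distal cluster, a region at chr15:63924333-63925086, over the pseudogene Gsdmcl-ps, had −log10 q of 56.1 and 44.4 in T2 and 33.4 and 28.3 in T1. Cyrib, which encodes an actin regulator that binds RAC1, held 3 regions at the end of the window. The 1 in all 4 libraries, at chr15:63985568-63986140, had 20.7 and 7.98 in T2 and 16.7 and 14.5 in T1, and the others had a peak in T1 replicate 1 alone, with 3.92 and 4.81.

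All 16 MYC target genes with a start to check, among them Ncl and Nop56 (nucleolar proteins), Odc1 (polyamine synthesis) and Cad (pyrimidine synthesis), had a region of all 4 libraries at the start. Their median percentile was 94.4 and 94.0 in T2 and 94.1 and 94.3 in T1. All genes open at the start, not matched for expression, had 87.0 and 85.4 in T2 and 86.2 and 84.6 in T1. Tert, the telomerase catalytic subunit, was lower, with 79.4 and 68.3 in T2 and 62.8 and 52.6 in T1, both T2 values above both T1 values. At Ncl the order was the reverse, with −log10 q of 206 and 161 in T2 and 249 and 197 in T1 and percentiles of 98.2 and 97.5 in T2 and 99.1 and 99.0 in T1.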
